A study of Mus musculus with 3 samples.

Results

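The genes described here encode the actin filament, the Z-disc and the giant filaments of the muscle sarcomere, measured by RNA sequencing in mouse mandibular condyles. They were taken by symbol from the deposited expression table, where all 8 listed genes (Acta1, Actc1, Actn2, Actn3, Ttn, Neb, Myoz1 and Myoz2) were found among 26970 genes. The table has 1 column for each of 3 genotypes, WT (+/+), Dspp+/- and Dspp-/-, all from mice aged 4 months. Dspp encodes a matrix protein of dentin, bone and condylar cartilage, and the mutant mice carry a global knockout of it on the C57BL/6 background, in 1 allele or in both. For WT and for Dspp+/- the tissue of 3 animals went into 1 pooled sample. Groups had 3 mice at each age, but whether the Dspp-/- sample was pooled in the same way is not stated in the account of the pooling. The labels mention triplicate libraries, but the table holds 1 value per gene and genotype, so no difference between genotypes was tested and every interval below covers counting error only. The Dspp gene was not analysed here, and the genotype of each library was therefore not checked against it.

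A sarcomere is the repeating contractile unit of striated muscle. Actin thin filaments are anchored at the Z-disc, where alpha-actinin crosslinks them, while nebulin runs along the thin filament and titin spans from the Z-disc to the M-band at the centre of the thick filament. Calsarcins, also called myozenins, bind alpha-actinin and the phosphatase calcineurin at the Z-disc. Several of these proteins exist as fibre-type forms: Actn3 and Myoz1 belong to fast fibres, Myoz2 to slow fibres and heart, Actn2 to all striated fibres, Acta1 to adult skeletal muscle, and Actc1 to heart and to developing or regenerating skeletal muscle. The lateral pterygoid muscle inserts at the neck of the condyle. The labels give the tissue only as condyle and do not mention muscle, and in bulk tissue fewer muscle fibres cannot be told apart from less RNA per fibre.

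The 2 sarcomeric actins are the pair whose levels lie furthest apart, and their coding sequences show how fragments of one can be told from the other. The first 90 coding bases of each in GENCODE M21 are shown 5′ to 3′, from the start codon, with the bases that differ between both genes in capitals.
Acta1: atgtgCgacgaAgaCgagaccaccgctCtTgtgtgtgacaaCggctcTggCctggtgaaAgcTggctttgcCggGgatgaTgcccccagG
Actc1: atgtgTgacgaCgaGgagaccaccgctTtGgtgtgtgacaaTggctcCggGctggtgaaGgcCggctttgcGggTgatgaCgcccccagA
In this stretch 14 bases differ. Over all 1131 coding bases 155 differ, which leaves 86.3% identity, and the longest stretch shared without a difference is 29 bases. None of the 100-base sequences of any of the 8 genes occurs in a transcript of another gene of GENCODE M21. Exons of Ttn and Neb overlap a gene on the other strand over 0.388% and 0.169% of their length, and those of the other 6 genes overlap none.

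The table names no unit. Its values were read as FPKM, in which the fragments of a gene are divided by its exon length and by the depth, since low values came in steps of whole fragments. The steps gave a depth of 20241576 fragments for WT, 23613621 for Dspp+/- and 22253158 for Dspp-/-. FPKM does not adjust for composition, and the 15 mitochondrially encoded genes took 25.0% of all FPKM in WT against 36.9% and 37.3% in Dspp+/- and Dspp-/-. Genes of the labelled tissue were present but at unequal levels: 8 osteoblast genes summed to 12790 FPKM in WT against 3359 in Dspp+/- and 6750 in Dspp-/-, and 8 chondrocyte genes to 1458, 468 and 671. Marrow genes moved the other way, with 8 erythroid genes at a sum of 9.69, 163 and 137 FPKM and 8 neutrophil genes at 591, 2629 and 3480. The part of these unequal levels in the values of the sarcomere genes was not tested.

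Together the 8 genes took 1.53% of all fragments in WT (Clopper-Pearson interval 1.526 to 1.537), 2.14% in Dspp+/- (2.137 to 2.148) and 1.93% in Dspp-/- (1.920 to 1.931). The share was smallest in WT and largest in Dspp+/-. Acta1 alone accounted for 90.0%, 92.6% and 92.1% of the summed FPKM of the 8 genes in the same order. On the FPKM scale, which compares genes per length, the order in WT was Acta1, Myoz1, Actn2, Actn3, Neb, Myoz2, Ttn and Actc1. In Dspp+/- it was Acta1, Actn2, Myoz1, Neb, Myoz2, Ttn, Actc1 and Actn3, so Actn3 moved from the fourth place to the last. In Dspp-/- it was Acta1, Myoz1, Actn2, Neb, Actn3, Myoz2, Actc1 and Ttn, and there the last 2 levels, 35.2 and 34.9 FPKM, were close together.

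**Figure D1:**
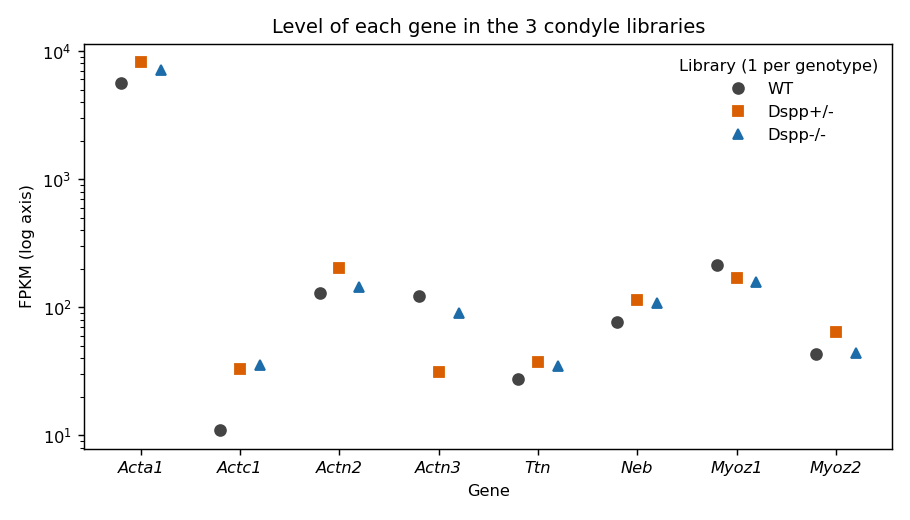
FPKM on a log axis for each of the 8 genes, with 1 point per library (WT, Dspp+/-, Dspp-/-) and no error, as each genotype has 1 library. Acta1 lies at 5609 FPKM or above in every library, Actn3 drops to 31.0 FPKM in Dspp+/-, and Actc1 is lowest in WT at 10.9 FPKM.

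Acta1, the actin of adult skeletal muscle fibres (ENSMUSG00000031972, chromosome 8 from 124618508 to 124621490, minus strand), stood at 5609 FPKM in WT against 8162 in Dspp+/- and 7150 in Dspp-/-. It was the gene of rank 8 by FPKM in each of the 3 libraries. Its level was lowest in WT and highest in Dspp+/-, a fold to WT of 1.46 (interval 1.45 to 1.46) in Dspp+/- and 1.27 (1.27 to 1.28) in Dspp-/-. Neither fold reached 2. Positions of the 8 genes are those of the table, whose mouse genome build is not stated, and intervals of folds are 95% counting intervals.

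Actc1, the actin of heart and of developing skeletal muscle (ENSMUSG00000068614, chromosome 2 from 113877763 to 113884029, minus strand), stood at 10.9 FPKM in WT against 32.7 in Dspp+/- and 35.2 in Dspp-/-. Behind these levels stood 358, 1248 and 1268 fragments. Both mutant libraries lay far above WT, with a fold of 2.99 (2.65 to 3.37) in Dspp+/- and 3.22 (2.86 to 3.63) in Dspp-/-, while between the mutant libraries the fold of 1.08 had an interval (0.996 to 1.17) that includes 1. On the log2 scale of FPKM + 1, the scale used for thresholds throughout, the differences to WT were 1.497 and 1.60, and 2.86% and 1.60% of the 13026 genes compared differed by at least as much in either direction. Genes of heart chambers stayed low: of 8 on the list, 5 were in the table, and their summed levels in WT, Dspp+/- and Dspp-/- were 1.46, 1.48 and 1.29 FPKM. Of the 9 genes listed for developing fibres and satellite cells, 8 were in the table, with summed levels of 38.5, 63.4 and 42.9 FPKM. Myf6 alone gave 19.2, 37.3 and 25.3 FPKM of these sums, and Myh3 had 1.42, 3.82 and 1.01. Pax7, Myf5 and Myog, at 0.270, 0.712 and 0.562 FPKM in WT, averaged below 1 FPKM and were not compared. Of the 4 genes of this list compared, all 4 were higher than WT in Dspp+/-, while in Dspp-/- 1 was higher and 3 lower. Over all genes compared, 56.3% and 50.7% were higher. The part of such fibres in the level of Actc1 was not tested.

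The alpha-actinins crosslink actin filaments at the Z-disc. Actn2 (ENSMUSG00000052374, chromosome 13 from 12284312 to 12355641, minus strand), the form present in all striated fibres, gave 129 FPKM in WT against 203 in Dspp+/- and 144 in Dspp-/-. It was higher than WT in both mutant libraries, by a fold of 1.58 (1.54 to 1.62) in Dspp+/- and 1.12 (1.09 to 1.15) in Dspp-/-.

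Actn3 (ENSMUSG00000006457, chromosome 19 from 4911244 to 4927937, minus strand), the form of fast glycolytic fibres, gave 122 FPKM in WT against 31.0 in Dspp+/- and 89.5 in Dspp-/-. The Dspp+/- library stood apart from both others. Its fold to WT was 0.254 (0.242 to 0.267), a log2 difference of -1.94, and 1.28% of all genes compared differed by as much in either direction. In Dspp-/- the fold to WT was 0.734 (0.709 to 0.760), and Actn3 was 2.88 times as high there as in Dspp+/- (2.74 to 3.03). The summed level of both alpha-actinins was 251 FPKM in WT against 234 and 233 in Dspp+/- and Dspp-/-, so that the sum varied less than either gene.

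The giant proteins set the length and stiffness of the sarcomere. Ttn, titin (ENSMUSG00000051747, chromosome 2 from 76534324 to 76812891, minus strand), was at 27.8 FPKM in WT against 37.7 in Dspp+/- and 34.9 in Dspp-/-. Neb, nebulin (ENSMUSG00000026950, chromosome 2 from 52026659 to 52268486, minus strand), was at 76.9, 114 and 108 FPKM in the same order. Both were lowest in WT and highest in Dspp+/-. The folds to WT in Dspp+/- and Dspp-/- were 1.36 (1.35 to 1.37) and 1.26 (1.25 to 1.27) for Ttn, and 1.48 (1.463 to 1.499) and 1.41 (1.39 to 1.43) for Neb. With exons of 116825 bases in GENCODE M21, Ttn gave about 65642 fragments in WT, second to Acta1 among the 8 genes although its FPKM was low. For Ttn and Neb, FPKM times this length was not a whole number of fragments in every library, so their fragment numbers are approximate.

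The calsarcins tie alpha-actinin to calcineurin signalling. Myoz1 (ENSMUSG00000068697, chromosome 14 from 20699175 to 20706608, minus strand), the fast-fibre form, gave 213 FPKM in WT against 169 in Dspp+/- and 158 in Dspp-/-. It was highest in WT, with folds of 0.793 (0.768 to 0.818) and 0.742 (0.719 to 0.767). Myoz2 (ENSMUSG00000028116, chromosome 3 from 122799855 to 122828664, minus strand), the slow-fibre and heart form, had 43.4, 64.3 and 44.1 FPKM. It was higher than WT in Dspp+/- by a fold of 1.48 (1.42 to 1.55), and in Dspp-/- its fold of 1.02 had an interval (0.968 to 1.07) that includes 1.

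**Figure D2:**
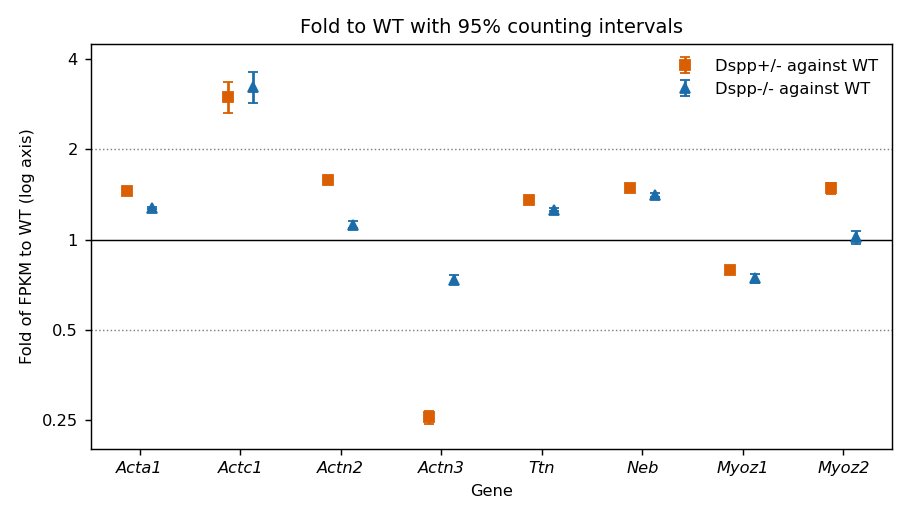
Fold of FPKM to the WT library on a log axis for each gene, for Dspp+/- (squares) and Dspp-/- (triangles), with 95% counting intervals as bars and dotted lines at 0.5 and 2. Actc1 lies above 2 in both, Actn3 lies at 0.254 in Dspp+/-, and the other 6 genes lie between the dotted lines.

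In Dspp+/- against WT, 6 of the 8 genes were higher and 2 lower, and 2 of 8 (Actc1 higher, Actn3 lower) differed at least 2-fold on the log2 scale of FPKM + 1. Of the 13026 genes that averaged 1 FPKM or more over the libraries, 56.3% were higher and 7.75% differed at least 2-fold in this comparison. The median log2 ratio was 0.55 over the 8 genes and 0.058 over all genes compared. In Dspp-/- against WT, again 6 genes were higher and 2 lower, beside 50.7% of all genes higher. Of the 8 genes, 1 (Actc1) passed 2-fold, where the background over all genes was 5.42%. The medians there were 0.24 and 0.0070. Both comparisons share the WT library. In Dspp-/- against Dspp+/-, 2 genes were higher and 6 lower, beside 44.7% of all genes higher. Of the 8 genes, 1 (Actn3) passed 2-fold, against 1.65% of all genes. Median log2 ratios between the mutant libraries were -0.10 over the 8 genes and -0.037 over all genes compared. With 8 genes and 1 library per genotype, these counts describe the libraries only.

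Ratios between genes of the same library do not depend on how libraries are scaled to each other. The Actn3/Actn2 ratio of FPKM was 0.947 in WT against 0.152 in Dspp+/- and 0.621 in Dspp-/-. Both alpha-actinin genes were thus near parity in WT, and Actn2 was 6.56 times as high as Actn3 in Dspp+/-. Against WT the ratio was multiplied by 0.161 (interval 0.152 to 0.170) in Dspp+/- and by 0.656 (0.628 to 0.685) in Dspp-/-.

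The Myoz1/Myoz2 ratio, the fast against the slow calsarcin, was 4.91 in WT against 2.63 in Dspp+/- and 3.59 in Dspp-/-. Its order over the libraries was that of the alpha-actinin ratio, with smaller changes of 0.535 (0.506 to 0.566) and 0.730 (0.688 to 0.774). The Acta1/Actc1 ratio was 513 in WT against 249.9 in Dspp+/- and 203 in Dspp-/-, and here Dspp-/- lay furthest from WT. The Ttn/Neb ratio was 0.361, 0.331 and 0.322, and its changes of 0.917 and 0.892 were the closest to 1 of the 4 pairs. The intervals of all 4 changes lie away from 1 in both mutant libraries, but they do not cover the spread between mice.

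**Figure D3:**
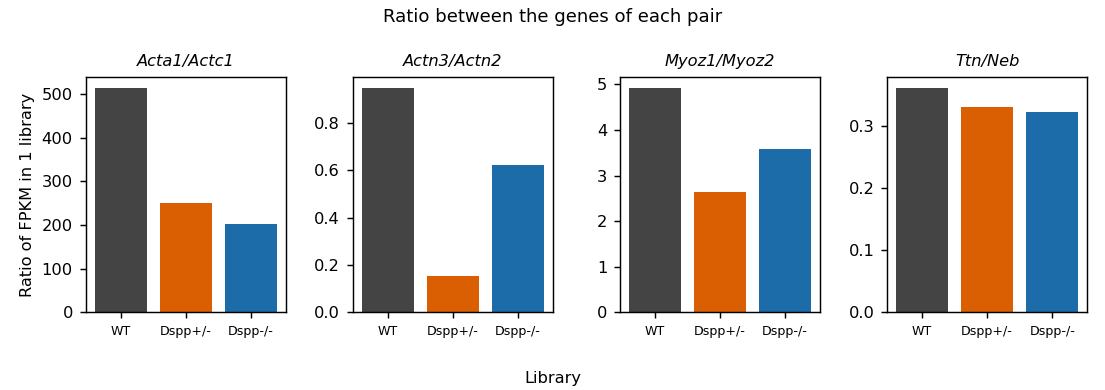
Ratio of FPKM between the genes of 4 pairs in each library, as bars from 0 with a separate scale per pair and no error, as each genotype has 1 library. The Actn3/Actn2 bar falls to 0.152 in Dspp+/- while the Ttn/Neb bars stay between 0.322 and 0.361.

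The partners of these proteins in the sarcomere were described from 3 lists written for this work. Among all genes compared, 56.3% were higher than WT in Dspp+/- and 50.7% in Dspp-/-, and 7.75% and 5.42% differed at least 2-fold. The Z-disc list has 18 genes, all of them compared. In Dspp+/- 17 were higher than WT and 1 lower, none by 2-fold, with a median log2 ratio of 0.69. Tcap, which caps titin at the Z-disc and was the most abundant of the list in WT but not in Dspp+/- or Dspp-/-, had levels of 635 FPKM in WT against 691 and 526 in Dspp+/- and Dspp-/-. In Dspp-/- 12 of the 18 were higher than WT and 6 lower, and the median was 0.17.

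The thin filament list has 12 genes, all higher in Dspp+/- than in WT, with a median of 0.49, and 10 of them higher in Dspp-/-, with a median of 0.28. Tpm2, a tropomyosin that lies along actin and the most abundant of them, had 662, 1074 and 772 FPKM. The thick filament and M-band list has 13 genes, of which 11 were compared. In Dspp+/- 9 were higher and 2 lower, with a median of 0.50, and in Dspp-/- 7 were higher and 4 lower, with a median of 0.13. Mybpc1, a myosin-binding protein of slow fibres and the most abundant of this list, had 190, 322 and 261 FPKM.

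Over the 3 lists, 41 genes were compared, and beside 7.75% of all genes, 1 of them passed 2-fold in Dspp+/-. This was Mybpc2, the fast-fibre myosin-binding protein, at 129 FPKM in WT against 56.8 in Dspp+/- and 95.04 in Dspp-/-. Its levels followed the order of Actn3, lowest in Dspp+/- and between in Dspp-/-. No partner passed 2-fold in Dspp-/-, where 5.42% of all genes did. The log2 ratio of Actn3 in Dspp+/-, -1.94, lay below the lowest of the 41 partners (-1.17), and that of Actc1, 1.497, above the highest (0.98). In Dspp-/- Actc1, at 1.60, again lay above all 41 partners (highest 0.67), while Actn3, at -0.44, lay close to the lowest of them (-0.44).

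**Figure D4:**
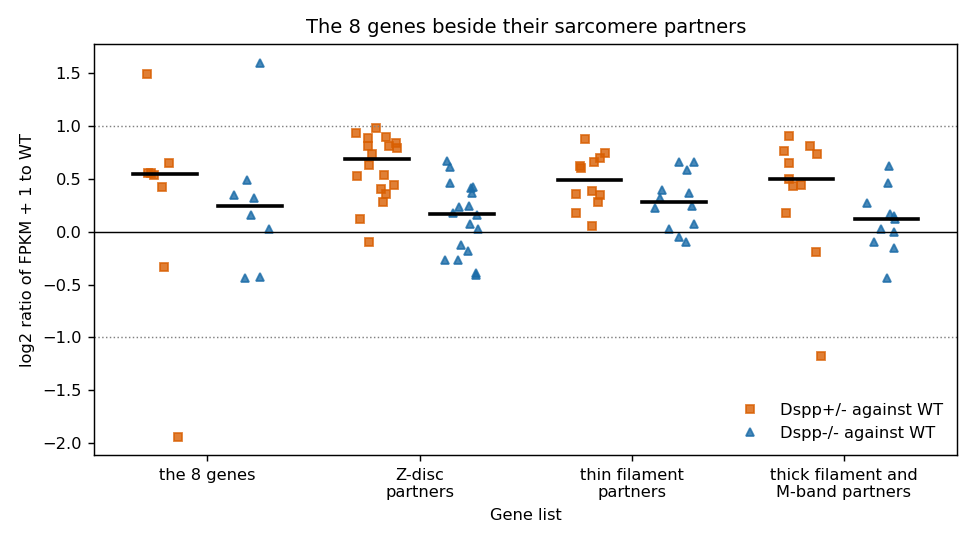
The log2 ratio of FPKM + 1 to WT for the 8 genes and for 3 lists of sarcomere partners (18, 12 and 11 genes), with 1 point per gene, squares for Dspp+/-, triangles for Dspp-/-, black bars at the medians and dotted lines at 2-fold. Most points of Dspp+/- lie above 0, and Actc1 (1.497) and Actn3 (-1.94) lie outside the range of the partners.

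When each library was scaled to the median of these 41 partners, 5 of the 8 genes lay between 0.850 and 1.18 of WT. The folds of Acta1, Actn2, Ttn, Neb and Myoz2 were 0.927, 1.01, 0.865, 0.943 and 0.943 in Dspp+/-, and 1.07, 0.935, 1.05, 1.18 and 0.850 in Dspp-/-. This scaling was chosen after the values were seen. Actn3 was then at 0.162 of WT in Dspp+/- and 0.614 in Dspp-/-. Myoz1 was at 0.505 and 0.621, and Actc1 at 1.90 and 2.69. Acta1, Ttn, Neb and Myoz2 in Dspp+/-, and Actn2 and Myoz2 in Dspp-/-, were above WT without this scaling and below WT with it.

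Genes of muscle fibre types were described as well, and the part of fibre types in the levels of Actn3 and Myoz1 was not tested. Myh4, the myosin heavy chain of the fastest fibres, was at 124 FPKM in WT against 18.2 in Dspp+/- and 111 in Dspp-/-, and Myh2, that of fast oxidative fibres, had 342, 706 and 359. Myh1, the most abundant of the listed fast myosin heavy chains, had 671, 747 and 726 FPKM. Of the 11 fast-fibre genes, 10 were compared. In Dspp-/- 4 of them were higher than WT and 6 lower, with a median of -0.18, beside 50.7% of all genes higher. In Dspp+/- 7 were higher and 3 lower, with a median of 0.16, beside 56.3% of all genes higher. The 3 lower ones were Myh4, Mybpc2 and Pvalb, the calcium buffer of fast fibres, at 567, 294 and 453 FPKM. Tnnc2, the fast troponin C, was listed at 0 in WT and in Dspp-/- and had 1 fragment in Dspp+/-, although other fast-fibre genes were abundant. Of the 8 slow-fibre genes, 5 were compared, and all 5 were higher in Dspp+/- (median 0.77) while 1 was higher in Dspp-/- (median -0.075). The summed level of all 8 slow-fibre genes was 65.0 FPKM in WT against 113 and 65.7 in Dspp+/- and Dspp-/-. Most of this came from Atp2a2, at 44.0, 62.4 and 42.3 FPKM, while Myh7, Tnni1 and Tnnc1 averaged below 1 FPKM and were not compared. The sum was far below the 6318, 7765 and 5848 FPKM of the fast-fibre list.

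Of 10 relatives of the 8 genes, most of them acting outside the sarcomere, 8 were compared. In each mutant library 4 were higher than WT and 4 lower, and none passed 2-fold. Over all genes compared, 7.75% passed 2-fold in Dspp+/- and 5.42% in Dspp-/-, so none among 8 genes is near these shares. Actb, the cytoplasmic beta-actin and the most abundant, was at 277 FPKM in WT against 344 in Dspp+/- and 348 in Dspp-/-. Acta2, the smooth muscle actin, had 34.8, 41.0 and 35.4 FPKM, and the non-muscle alpha-actinins Actn1 and Actn4 had 18.4, 16.9 and 21.6 and 37.3, 31.5 and 29.8 FPKM. Myoz3, the remaining calsarcin, had 24.0, 37.1 and 23.5 FPKM, highest in Dspp+/- as Myoz2 was, whereas Myoz1 was highest in WT.

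Likeness of pattern was measured as the distance between the log2 ratios to WT in both mutant libraries, over 3 libraries in all. The 5 genes nearest to the median of the 8 genes (0.55 and 0.24) were Uqcrc2, Bckdhb, Nrarp, Cd300lg and Musk, at distances from 0.0070 to 0.016. This point is a crowded one, with 1208 genes within 0.25 of it. Around Actn3 only 5 genes lay within 0.25, namely Igkv9-124, Frzb, Rps18-ps5, Hpgd and Ccn4, and around Actc1 there were 49, the nearest being Ccna2, Pf4, Mrgpra2b, Padi4 and Pclaf. No gene of the 3 partner lists could be among the 5 named in either set. The log2 ratios of the 41 partners compared ran only from -1.17 to 0.98 in Dspp+/-. The searches around Actn3 and Actc1 were added after their values were seen. These ratios are of FPKM + 1, so a low gene can lie near Actc1 or Actn3 with a larger fold. Mrgpra2b was at 0.296 FPKM in WT against 2.54 in Dspp+/- and 2.93 in Dspp-/-, and Padi4 at 0.981, 4.71 and 5.18. Igkv9-124 was at 7.00, 0.840 and 4.71 FPKM.

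Promoter sequences from RefSeq (GRCm38.p6) were available in the reference used here for 5 of the 8 genes, Acta1, Actc1, Actn2, Ttn and Myoz2. The 250 bases before the start of both actin genes are shown 5′ to 3′ on the gene's strand, since the folds of the actins differed, with CArG boxes, MEF2 sites and TATAAA in capitals. The regions are chr8:123894776-123895025 and chr2:114052876-114053125, both on the minus strand, in a build other than that of the table's positions.
Acta1: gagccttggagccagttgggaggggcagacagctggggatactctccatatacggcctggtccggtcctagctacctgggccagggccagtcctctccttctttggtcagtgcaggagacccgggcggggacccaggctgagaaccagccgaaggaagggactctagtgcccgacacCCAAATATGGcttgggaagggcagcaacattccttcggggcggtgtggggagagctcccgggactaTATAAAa
Actc1: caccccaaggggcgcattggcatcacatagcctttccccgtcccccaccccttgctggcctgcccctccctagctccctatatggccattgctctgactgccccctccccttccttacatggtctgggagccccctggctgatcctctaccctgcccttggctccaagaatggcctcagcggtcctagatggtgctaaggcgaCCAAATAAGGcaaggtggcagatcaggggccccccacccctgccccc
A CArG box, the element bound by serum response factor, was searched on both strands and matched once in each. The match lies from 73 to 64 bases before the start of Acta1 and from 47 to 38 bases before that of Actc1. Both printed sequences also hold near matches to it, in small letters, which were not counted. Of 32851 promoters of the same length, 1.47% hold this motif, and those of Actn2, Ttn and Myoz2 do not. A MEF2 site, the element of the MEF2 muscle factors, was found once each in Ttn and Myoz2 and in 2.92% of all promoters. The E-box CANNTG, which MyoD-type factors bind, was found in Acta1, Actn2, Ttn and Myoz2 and not in Actc1, but 66.2% of all promoters hold it. TATAAA was found in Acta1 of the 5 and in 12.4% of all promoters. All these matches describe letters in this window only, and their part in the levels of the genes was not tested.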

How the data were processed

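Condyle RNA of 3 genotypes was measured in 1 library each, grouped by the sample titles. The authors deposited 1 table of 26970 genes without naming its unit. The deposited values were read as FPKM: FPKM times merged exon length (GENCODE M21, found for 26641 genes) was whole within 0.05 fragments for 98.9% of genes under 100 fragments in each library. The submitters' processing notes name FastQC 0.11.5, HISAT2 2.1.0, StringTie 1.3.3b and DESeq 1.28.0 without their roles, and the human build hg38, although the table's positions are mouse. The build of these positions is not given in the sources used here, and start and end match GENCODE M21 (GRCm38) for only 578 of the 26970 genes. Coding sequences and promoters come from GRCm38.

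Genes were compared as log2 ratios of FPKM + 1, which understates the change of low genes, where their mean reached 1 FPKM, and called at 2-fold. With 1 library per genotype no p-value was computed, and the study's Kruskal-Wallis test could not be used. Intervals are 95% Clopper-Pearson intervals of the recovered fragments, and those of pair ratios are intervals of the odds ratio (exact conditional, or normal on the log scale for Ttn/Neb). They cover counting error only, and PCR copies are not independent molecules. Recovery was tested on simulated data.

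The genes named are the 8 genes, the most abundant partners (Tcap in WT only) and those past 2-fold, defining markers of other lists, and the 5 genes nearest in pattern. Acta2, Actn1, Actn4, Myoz3, Atp2a2, Myh1, Myh7, Tnni1, Tnnc1, Myf5, Myf6, Myog, Pax7 and Myh3 were named after their values were seen. The 8 genes and the lists were chosen with earlier results of these data known. Other settings tried were other pseudocounts (0.1 and 5), filters (none, or 5 FPKM), 4 scalings, and thresholds of 1.5-fold and 4-fold. Python 3.11.15 was used with scipy 1.17.1, numpy 2.4.6, matplotlib 3.10.9 and pandas 2.3.3.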

Additional observations from a re-analysis of the deposited data

How the results depend on the processing

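The 2-fold calls of Actc1 and Actn3 were made again under both other pseudocounts, both other filters and all 4 planned scalings, and over these 8 alternatives the log2 ratio in Dspp+/- ranged from 1.24 to 1.62 for Actc1 and from -2.09 to -1.82 for Actn3. In Dspp-/- that of Actc1 ranged from 1.34 to 1.72. The other 6 genes kept their sign to WT in both mutant libraries, except Myoz2 in Dspp-/- (0.024), which turned negative under median-ratio, upper-quartile and housekeeping scaling (lowest -0.012). Between the mutant libraries, Ttn, Neb and Myoz1 changed sign under housekeeping scaling, which moved the median of all genes in Dspp+/- against WT by -0.12. At 4-fold the number of the 8 genes called was 0 in each comparison. Scaling to the sarcomere partners left 1 of the 8 (Actn3) called in Dspp+/- against WT, with 1687 of all genes, and moved the median of all genes by -0.51 in Dspp+/- and -0.21 in Dspp-/-. The 1009, 706 and 215 genes called (Dspp+/- against WT, Dspp-/- against WT, Dspp-/- against Dspp+/-) became 1576, 1199 and 437 with a pseudocount of 0.1, 341, 181 and 72 with 5, 553, 338 and 109 when a mean of 5 FPKM was required, 2667, 2222 and 1004 at 1.5-fold, and 148, 109 and 28 at 4-fold. With no filter the last of them was 342. These follow from the construction of each setting. Pair ratios computed with the pseudocount stayed within their counting intervals. No paired analysis was possible because each genotype has 1 library. The counting intervals do not cover the spread between mice, which 1 library per genotype cannot give, nor the unequal tissue composition of the libraries.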

Other observations

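Genes of the muscle membrane and cytosol, which carry excitation and energy supply, were described in the same way. For the counts here, 56.3% of all genes compared were higher than WT in Dspp+/- and 50.7% in Dspp-/-. At least 2-fold differences were seen for 7.75% and 5.42% of them. Of the 12 genes of muscle membrane and cytosol, 11 were compared. All 11 were higher in Dspp+/- than in WT, none by 2-fold, with a median log2 ratio of 0.51. In Dspp-/- 7 were higher and 4 lower, with a median of 0.23. Mb, the oxygen-binding myoglobin and the most abundant of the list, was at 1204 FPKM in WT against 1763 in Dspp+/- and 944 in Dspp-/-, and Ckm, the muscle creatine kinase, was at 728, 972 and 796 FPKM. Tendon genes did not move with them: the 6 genes on that list all had lower levels in Dspp+/- (median -0.29), and 4 of 6 were lower in Dspp-/- (median -0.39). Of 8 endothelial genes, 6 were higher than WT in each mutant library, with medians of 0.20 and 0.17.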
